A study of Homo sapiens with 4 samples.

Results

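The G2 and M phase genes are a set of 52 genes whose transcripts are known to gather in cells that prepare for or pass through mitosis. All 52 were listed in each of the 4 single-cell tables of the study, which hold 23364 genes between them, and all 52 passed the filter on low counts in every comparison below. They were grouped by what their proteins are known to do into 8 role groups: CDK1 and its partners (5 genes), ubiquitin and the anaphase-promoting complex (4), centromere, kinetochore and checkpoint (8), mitotic kinases and the chromosomal passenger complex (6), spindle and microtubules (14), chromosome structure and chromatin (9), nuclear envelope and pore (3) and cytokinesis (3). Of the 52, 12 are called broad here because many cells also carry them outside G2 and M phase.

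Droplet single-cell libraries from polyadenylated RNA were read for KhES1, an established human embryonic stem cell (hESC) line grown in mTeSR-1 medium on Matrigel (hESC 1 and hESC 2), and for blastoids made from KhES1 in iBlastoid medium with a hydrogel (blastoid 3 and blastoid 4). Blastoids are stem cell aggregates grown so that they resemble a blastocyst; the protocol text describes aggregation in microwells with Y27632, a hydrogel stage in medium with serum, and then daily iBlastoid medium. Both groups come from the same line. The titles give all 4 samples the same day while the table names of the blastoid samples carry a later day, so the groups were taken from the descriptions. Nothing in the labels says that the 2 samples of a group came from separate cultures, so p-values measure only the spread between these samples, which may be technical.

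Cells with at least 500 genes and no doublet call were kept, which left 2238 and 3175 cells in the hESC samples and 2278 and 1916 in the blastoid samples, with medians of 4996 to 8798 UMIs (unique molecular identifiers, counted molecules) per cell. The samples of a group shared cell barcodes. Of the kept cells, 1310 in hESC 2 and 1010 in blastoid 4 had a barcode also found in the other sample of the group, with medians of 7522 and 11269 UMIs against 1801 and 6574 UMIs in the remaining cells of those samples, so leaving them out removes the deeper cells. The tables hold no barcode with 5000 or more genes, and between 0.976% and 5.74% of kept cells had over 4500 genes. POU5F1, the pluripotency factor, was detected in 89.6% and 88.9% of hESC cells after each cell had been thinned to 2000 UMIs. HAND1, a mesoderm and extraembryonic factor, was at 0% in both hESC samples and in 68.4% and 70.4% of blastoid cells.

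Progress through G2 and mitosis rests on CDK1 bound to cyclin B. CDK1 drives chromosome condensation, breakdown of the nuclear envelope and assembly of the spindle, and the checkpoint kinases hold the anaphase-promoting complex back until every kinetochore is attached. That complex then marks cyclins and other proteins for destruction, and the central spindle directs cytokinesis. Many of these genes are transcribed late in the cycle through promoters that carry a cell cycle homology region (CHR), bound by the DREAM and MuvB complexes, and CCAAT boxes, bound by NF-Y. Human embryonic stem cells are known for a short G1 phase, so a large part of a growing culture is in S, G2 or M phase at any time.

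Promoter sequences from 250 bases before to 50 bases after the start were taken from RefSeq (GRCh38.p14) and matched 44 of the 52 genes; ANP32E, AURKA, BIRC5, CDCA2, HMGB2, TPX2, TTK and UBE2C were not matched. CHR letters (TTTGAA or TTCGAA, both strands) stood in 32 of the 44 promoters (72.7%), against 16.6% of all 27305 promoters of this length and 9.38% of those of the S phase genes listed for comparison. CCAAT, searched on both strands, stood in 68.2% of the members' promoters, 35.7% of all promoters and 71.9% of S phase promoters. Both were found together in 59.1% of the members' promoters and 6.58% of all promoters. In 23 of the 44 (52.3%) a CHR match began within 50 bases of the start, against 5.05% of all promoters. Motif matches shared bases with each other in 3 promoters, those of CDCA8, HMMR and MKI67. Such a match is a description of letters, not of a bound site.

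The 6 promoters below belong to the 3 genes with the largest called falls between stem cells and blastoids (CKS1B, CKS2 and BUB1) and the 3 with the largest called rises (CKAP2L, TUBB4B and LBR). Capitals mark CHR and CCAAT letters on either strand, and each sequence runs 5′ to 3′ on the gene's own strand.
CKS1B, chr1:154974431-154974730, strand +: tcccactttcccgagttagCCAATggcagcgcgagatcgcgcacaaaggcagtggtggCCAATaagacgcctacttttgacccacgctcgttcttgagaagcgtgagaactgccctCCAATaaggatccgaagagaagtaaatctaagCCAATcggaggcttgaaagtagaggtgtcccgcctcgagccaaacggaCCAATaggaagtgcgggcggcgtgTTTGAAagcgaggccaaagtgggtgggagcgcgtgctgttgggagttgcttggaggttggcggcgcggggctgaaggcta
CKS2, chr9:89310945-89311244, strand +: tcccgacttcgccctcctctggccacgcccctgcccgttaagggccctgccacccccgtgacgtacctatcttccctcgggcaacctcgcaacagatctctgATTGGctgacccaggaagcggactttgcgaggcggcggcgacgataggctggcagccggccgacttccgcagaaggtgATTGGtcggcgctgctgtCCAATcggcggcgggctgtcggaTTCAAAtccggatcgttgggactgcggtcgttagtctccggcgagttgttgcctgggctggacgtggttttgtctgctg
BUB1, chr2:110678014-110678313, strand -: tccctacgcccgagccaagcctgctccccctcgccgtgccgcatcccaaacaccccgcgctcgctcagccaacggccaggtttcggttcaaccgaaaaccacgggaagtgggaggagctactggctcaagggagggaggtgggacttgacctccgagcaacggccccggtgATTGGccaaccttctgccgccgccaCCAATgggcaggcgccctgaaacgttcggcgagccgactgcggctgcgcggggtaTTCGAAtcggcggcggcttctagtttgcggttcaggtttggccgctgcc
CKAP2L, chr2:112764560-112764859, strand -: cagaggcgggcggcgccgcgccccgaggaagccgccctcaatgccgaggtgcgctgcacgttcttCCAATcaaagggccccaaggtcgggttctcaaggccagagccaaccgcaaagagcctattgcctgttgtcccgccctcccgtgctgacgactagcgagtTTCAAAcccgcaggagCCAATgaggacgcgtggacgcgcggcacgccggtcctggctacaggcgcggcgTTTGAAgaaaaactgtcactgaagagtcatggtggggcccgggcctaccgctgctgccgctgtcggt
TUBB4B, chr9:137241037-137241336, strand +: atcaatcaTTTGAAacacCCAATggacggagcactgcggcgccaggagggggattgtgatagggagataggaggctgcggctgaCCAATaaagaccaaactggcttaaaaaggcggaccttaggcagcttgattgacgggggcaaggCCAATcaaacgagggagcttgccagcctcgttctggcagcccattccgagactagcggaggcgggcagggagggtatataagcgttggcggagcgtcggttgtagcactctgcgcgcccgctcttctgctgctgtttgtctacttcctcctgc
LBR, chr1:225428772-225429071, strand -: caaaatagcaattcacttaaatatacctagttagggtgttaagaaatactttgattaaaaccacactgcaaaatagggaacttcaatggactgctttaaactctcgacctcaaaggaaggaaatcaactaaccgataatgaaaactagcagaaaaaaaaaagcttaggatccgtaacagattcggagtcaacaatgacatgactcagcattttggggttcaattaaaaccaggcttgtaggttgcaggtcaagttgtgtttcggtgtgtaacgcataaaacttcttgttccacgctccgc
The first 5 carry both motifs, whichever way the gene moved, and the LBR window has neither. Among the 44 matched genes the 32 with CHR letters had a median log2 fold change of -0.15 between blastoids and hESC and the 12 without had -0.01.

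The number of the 52 genes detected per cell was counted at a matched depth of 2000 UMIs drawn from each cell that had them (1803 and 2202 hESC cells and 2171 and 1874 blastoid cells). Stem cells formed a single broad peak, and blastoid cells spread to both sides of it. The 10th percentile, median and 90th percentile were 4, 9 and 16 genes in hESC 1 and 5, 10 and 16 in hESC 2, against 2, 8 and 19 in blastoid 3 and 1, 6 and 18 in blastoid 4. Cells with 3 genes or fewer made up 5.05% and 3.36% of hESC cells and 27.5% and 35.4% of blastoid cells. Cells with 20 genes or more made up 3.05% and 2.54% of hESC cells and 9.40% and 6.46% of blastoid cells. Both ends were thus fuller in both blastoid samples, and the standard deviation over cells was 4.56 and 4.28 genes in the hESC samples and 6.93 and 6.41 in the blastoid samples.

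**Figure D1:**
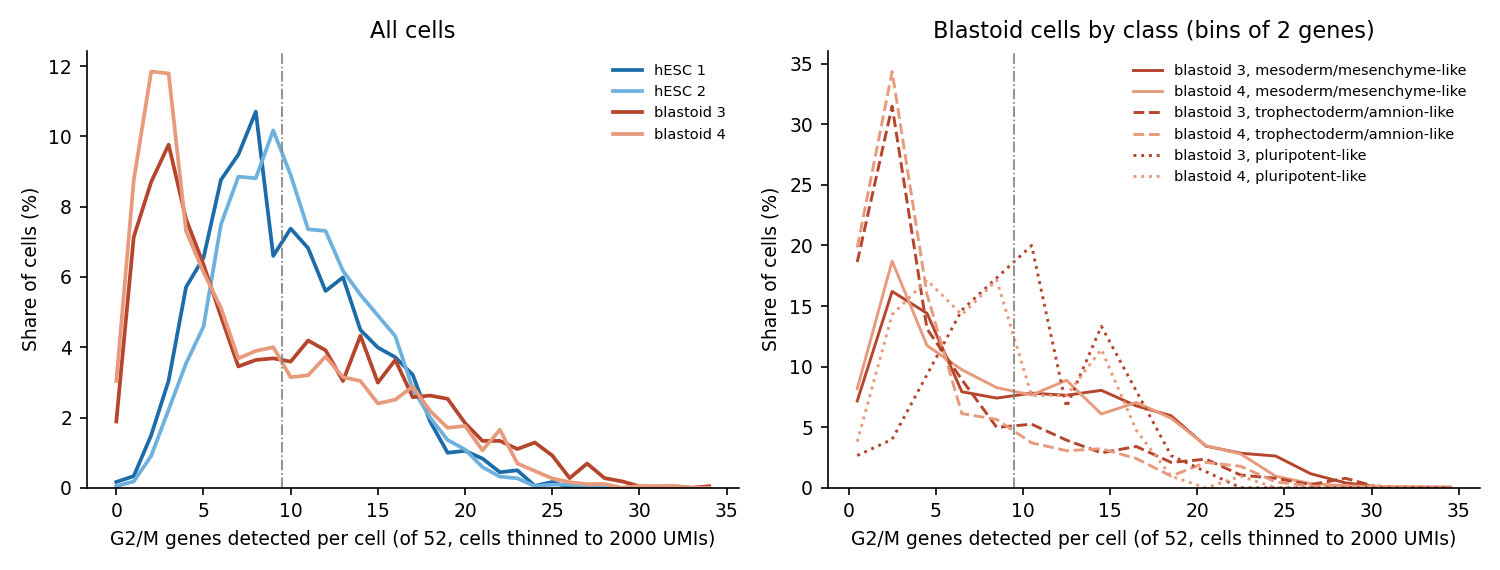
The x axis is the number of the 52 G2/M genes detected per cell after thinning to 2000 UMIs and the y axis the share of cells in percent, with 1 line per sample (left) or per sample and class (right, bins of 2 genes). The vertical line stands between 9 and 10 genes. The hESC samples peak between 8 and 9 genes and the blastoid samples between 2 and 3, with a longer upper tail in the blastoid samples.

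A cell is called G2/M-high here if at least 10 of the 52 genes were detected. The share was 47.1% (exact Clopper-Pearson 95% interval 44.8% to 49.5%) in hESC 1, 53.2% (51.1% to 55.3%) in hESC 2, 42.8% (40.7% to 44.95%) in blastoid 3 and 34.4% (32.3% to 36.6%) in blastoid 4; these intervals cover counting error only. Both blastoid samples were below both hESC samples. The means were 50.2% ± 4.27 (SD, n = 2) and 38.6% ± 5.95 (SD, n = 2), a difference of -11.5 percentage points and an exact two-sided permutation test gave p = 0.33, below which this design cannot go. The label G2/M-high names this count and not a share of cells in G2 or M phase. In blastoid 3 and blastoid 4 such cells also had more S phase genes detected than other cells (1.93 and 1.82 more). In hESC 1 and hESC 2 they had fewer (-0.82 and -0.68). The class is a range and not a kind of cell: 31.5% and 35.2% of hESC cells but 15.1% and 14.2% of blastoid cells had 8 to 11 genes, next to the threshold. The size of the difference moved with the threshold, to -22.1 points at 8 genes or more and -3.37 points at 12 or more (exact permutation p = 0.67). It was -18.5 points with cells thinned to 4000 UMIs and at least 15 genes, and -19.2 points in the share of G2M phase calls. Those calls score the same 52 genes in the same thinned cells as the G2/M-high label, so they are not a separate measure.

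G2/M-high cells carried more RNA than the rest in every sample. Their median before thinning was 7818.5 and 7064 UMIs in the hESC samples and 7752 and 10768 UMIs in the blastoid samples, against 5682, 5479, 5521 and 8087 UMIs in the other cells. The part that the missing cells with 5000 or more genes play in the shares was not tested. Without the shared barcodes the shares were 47.2% in hESC 1 and 35.7% in hESC 2, and 42.8% in blastoid 3 and 18.6% in blastoid 4, so that the groups overlapped.

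Blastoid cells were divided by clustering on variable genes without the cell cycle lists, and clusters were named from marker genes. Mesoderm/mesenchyme-like cells numbered 1755 and 1170 in blastoid 3 and blastoid 4, trophectoderm/amnion-like cells 429 and 636, and pluripotent-like cells 94 and 110. PITX1, a marker of the first class, was detected in 60.8% and 75.6% of its cells and in 2.10% and 1.94% of trophectoderm/amnion-like cells; VTCN1, an amnion marker, was in 18.4% and 26.3% of the latter and 0.117% and 0.174% of the former. Of the 13 mesoderm/mesenchyme markers 12 were found in a larger share of that class than of the other in both samples, and COL1A2 in a smaller one (47.7% and 39.2% against 51.4% and 49.7%). HAND1 was in 74.4% and 82.9% of the first class and also in 52.2% and 57.9% of trophectoderm/amnion-like cells. All 12 trophectoderm/amnion markers were in a larger share of their own class in both samples, though KRT19 was in 64.0% and 75.4% of mesoderm/mesenchyme-like cells as well. POU5F1 was in 78.7% and 87.6% of pluripotent-like cells. The markers of that class were below hESC in both blastoid samples, save NANOG and PRDM14, which were above. USP44 was in 8.0% and 11.4%, against 39.2% and 42.0% of hESC cells, and FOXD3 in 0% of both. In blastoid 3 and blastoid 4, 17 and 4 pluripotent-like cells came from cluster 2, mostly shallow hESC barcodes. Markers of other types in the tables were each in under 2% of the cells of both blastoid samples for 11 of 11 endoderm genes, 9 of 11 endothelial genes (not KDR and EGFL7) and 7 of 8 neural genes. The exception among the last, STMN2, was in 28.9% and 47.6% of trophectoderm/amnion-like cells, against 0.388% and 0.227% of hESC cells. No level of free RNA in the droplets was estimated for single genes. The names were rebuilt from markers and may differ from those of the study.

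Trophectoderm/amnion-like cells had the lower G2/M-high share in both blastoid samples. The share was 46.9% (44.5% to 49.3%) and 43.3% (40.5% to 46.3%) of mesoderm/mesenchyme-like cells in blastoid 3 and blastoid 4, and 22.8% (18.7% to 27.4%) and 18.1% (15.1% to 21.3%) of trophectoderm/amnion-like cells. The difference within a sample was 24.0 and 25.3 percentage points, a mean of 24.7 ± 0.87 (SD, n = 2), with no test over the 2 samples. Without the shared barcodes it was 24.0 points in blastoid 3, which has none, and 12.5 points in blastoid 4 (22.4% against 9.82%), a mean of 18.3. The number of member UMIs per 2000 followed the same order, with 14.8 and 13.3 in mesoderm/mesenchyme-like cells and 8.17 and 7.15 in trophectoderm/amnion-like cells, beside 12.7 and 13.6 in hESC 1 and hESC 2. Cells with 3 of the 52 genes or fewer were 50.1% and 54.2% of the trophectoderm/amnion-like class and 23.4% and 26.9% of the mesoderm/mesenchyme-like class.

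Pluripotent-like cells of blastoids had the narrow spread of the stem cell samples rather than that of the other blastoid cells, with a standard deviation of 4.35 and 4.64 genes per cell. Their G2/M-high share was 52% (39 of 75 cells, 40.2% to 63.7%) in blastoid 3 and 33.3% (35 of 105 cells, 24.4% to 43.2%) in blastoid 4. The difference from hESC was -7.49 points (exact permutation p = 0.67), less than the spread of 13.2 (SD, n = 2) between the blastoid samples. Without the shared barcodes the difference turned to 5.36 points, with 5 of 12 cells G2/M-high in blastoid 4 (15.2% to 72.3%). The share of hESC 2 was then 35.7%, without its deeper cells.

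Single clusters spread further still. Cluster 6 of the mesoderm/mesenchyme-like class, led by CNTN5, PAPPA and EGFL6, had 87.3% (83.2% to 90.7%) and 80.4% (75.0% to 85.1%) G2/M-high cells. Histone genes HIST1H2BN and HIST1H2BG, which are not in the lists left out, were also among its 10 leading genes. Cluster 4, led by MSGN1 and MESP1, genes of presomitic and early mesoderm, had 50% and 50.7%. Cluster 5, led by TECRL, NPNT and RELN, had 29.2% and 21.7%, and cluster 8, led by CXCL14 and LRRN3, had 17.6% and 19.6%. The clusters of stem cells lay between 43.2% and 60.7%; cluster 1 among them was led by histone genes. These are descriptions with no test, since clusters were drawn from the same cells.

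**Figure D2:**
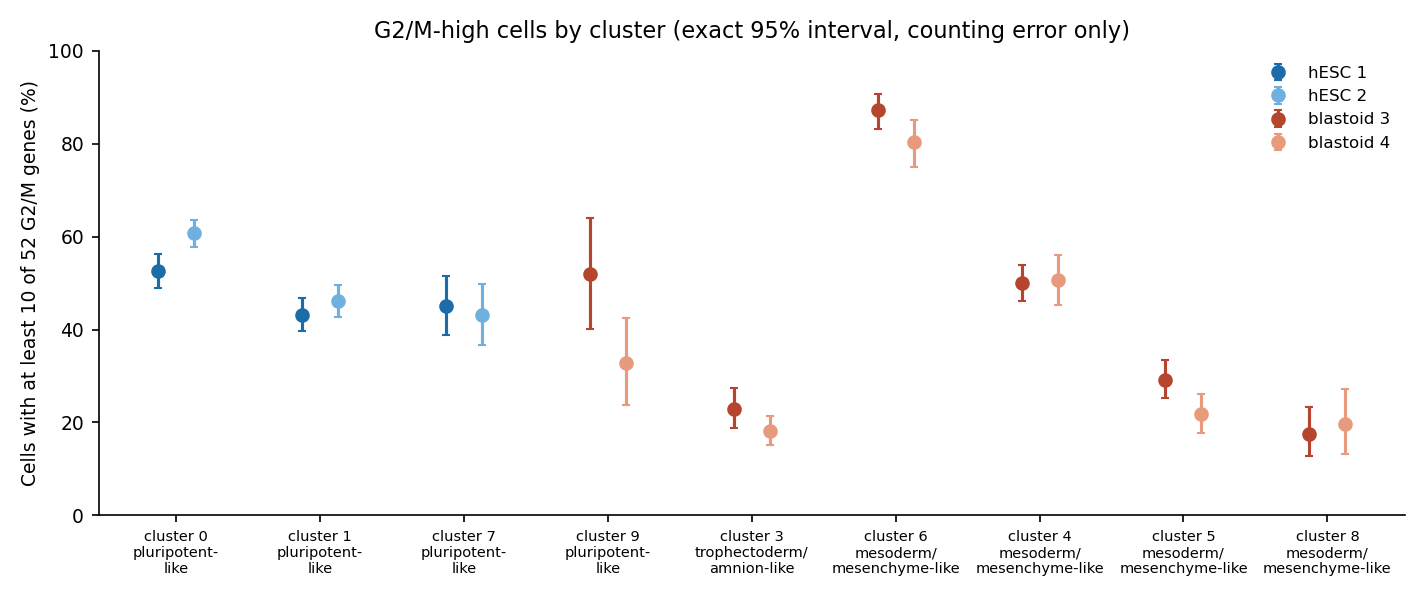
Each point is the share of cells, in percent, with at least 10 of the 52 G2/M genes in 1 cluster of 1 sample, and bars are exact 95% intervals for counting error only. Cluster 6 sits above 80% in both blastoid samples, while clusters 3, 5 and 8 sit between 17.6% and 29.2%; cluster 2, of shallow stem cell barcodes, is left out.

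Levels of single genes were compared on UMIs summed over all kept cells of a sample and are given as CPM (counts per 1000000 UMIs, with library sizes scaled by TMM). UMIs were read at the 3′ end, 1 per molecule, so levels of different genes were set side by side with no correction for length. The scaling was done anew in each comparison, so the CPM of the hESC samples differ slightly between them. A gene is called at an adjusted p under 0.05 in edgeR's quasi-likelihood test. Over all cells, 20 of the 52 genes were called between blastoids and hESC, 4 higher and 16 lower in blastoids, beside 49.9% of all 16332 genes tested (27.1% higher and 22.8% lower). The share of members called was therefore below that of all genes. The median log2 fold change of the 52 was -0.17, beside 0.05 over all genes. In bulk sums such as these, fewer G2/M cells and less RNA of a gene per cell cannot be told apart.

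The largest falls were those of the CDK1 partners CKS2 and CKS1B, the small adaptor subunits of cyclin-dependent kinases. CKS2 stood at 403 and 375 CPM in hESC 1 and hESC 2 and 152 and 164 CPM in blastoid 3 and blastoid 4. CKS1B stood at 409 and 359 CPM in hESC 1 and hESC 2 and 169.8 and 167 CPM in blastoid 3 and blastoid 4. Both genes were named for the size of their called fall, so the gap between their samples adds nothing to the calls. The log2 fold changes were -1.30 ± 0.13 (SE; adjusted p = 0.00025) and -1.19 ± 0.13 (SE; adjusted p = 0.00042). CDK1 itself, the mitotic kinase, had 121, 127, 154 and 105 CPM in hESC 1, hESC 2, blastoid 3 and blastoid 4, with overlap between the groups (log2 fold change 0.06 ± 0.19). The B-type cyclin CCNB2 (-0.19) and the phosphatase CDC25C, which activates CDK1 (0.05), were not called either. CKS1B was detected in 50.7% and 48.0% of hESC cells and 25.7% and 22.7% of blastoid cells at 2000 UMIs.

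Of the centromere and kinetochore genes, BUB1, a spindle checkpoint kinase, fell from 101 and 109 CPM in the hESC samples to 52.6 and 42.0 CPM in the blastoid samples, a log2 fold change of -1.15 ± 0.15 (SE; adjusted p = 0.00081). TTK, another checkpoint kinase, was called lower (-0.51 ± 0.16). The most abundant gene of this group, CENPF, a large kinetochore protein, had 634 and 683 CPM in hESC 1 and hESC 2 and 898 and 775 CPM in blastoid 3 and blastoid 4. Its blastoid samples were above both hESC samples, but the change of 0.34 ± 0.14 (SE; adjusted p = 0.082) was not called; with library size alone as the scaling (adjusted p = 0.028) or without blastoid 4 (adjusted p = 0.005) it was. The other 5 genes of the group (NDC80, NUF2, HJURP, CENPA and CENPE) had log2 fold changes from -0.29 to -0.08 and none was called.

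AURKA, the kinase of the spindle poles, had 96.9 and 104 CPM in hESC 1 and hESC 2 and 55.2 and 49.8 CPM in blastoid 3 and blastoid 4 (log2 fold change -0.93 ± 0.13, SE; adjusted p = 0.001). BIRC5, survivin, a member of the chromosomal passenger complex with AURKB, was called lower as well (-0.61 ± 0.12). AURKB (-0.29), the passenger subunit CDCA8 (0.18) and the centrosomal kinase NEK2 (0.17) were not called. TPX2, which activates AURKA and was the most abundant of its group, had 202, 201, 212 and 175 CPM in the same sample order. Its value of -0.06 ± 0.14 changed sign with library size alone as the scaling and without blastoid 4.

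The spindle group held most of the rises. CKAP2L, a spindle and centrosome protein of low abundance, had 13.9 and 15.1 CPM in hESC 1 and hESC 2 and 33.6 and 36.0 CPM in blastoid 3 and blastoid 4, a log2 fold change of 1.26 ± 0.14 (SE; adjusted p = 0.00042). Its adjusted p was 0.074 without the shared barcodes. TUBB4B, a beta-tubulin of many tissues and the most abundant of the group, had 124 and 166 CPM in hESC 1 and hESC 2 and 303 and 364 CPM in blastoid 3 and blastoid 4. The log2 fold change of TUBB4B was 1.20 ± 0.18 (SE; adjusted p = 0.0014). GTSE1, a microtubule-bound protein of G2 and S phase, was called with 45.6, 53.1, 65.9 and 64.9 CPM in hESC 1, hESC 2, blastoid 3 and blastoid 4 (0.41 ± 0.13, SE; adjusted p = 0.039). That call was lost with DESeq2, with thinned cells, without the shared barcodes and without either hESC sample (adjusted p from 0.089 to 0.72).

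In the same group DLGAP5, which stabilises kinetochore fibres, fell. It had 234 and 221 CPM in hESC 1 and hESC 2 and 132 and 92.7 CPM in blastoid 3 and blastoid 4, a log2 fold change of -1.02 ± 0.18 (SE; adjusted p = 0.0031), with an adjusted p of 0.061 without the shared barcodes. HMMR, a spindle pole protein, had 129.8, 134, 78.6 and 74.7 CPM in the same order (-0.78 ± 0.12, SE; adjusted p = 0.0016). The spindle regulator PSRC1 (-0.64 ± 0.21) and the microtubule depolymerase KIF2C (-0.38 ± 0.13) were also called lower. The remaining 7 genes, among them the motor KIF11 (-0.08) and the microtubule polymerase CKAP5 (-0.09), had log2 fold changes from -0.12 to 0.24 and were not called.

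**Figure D3:**
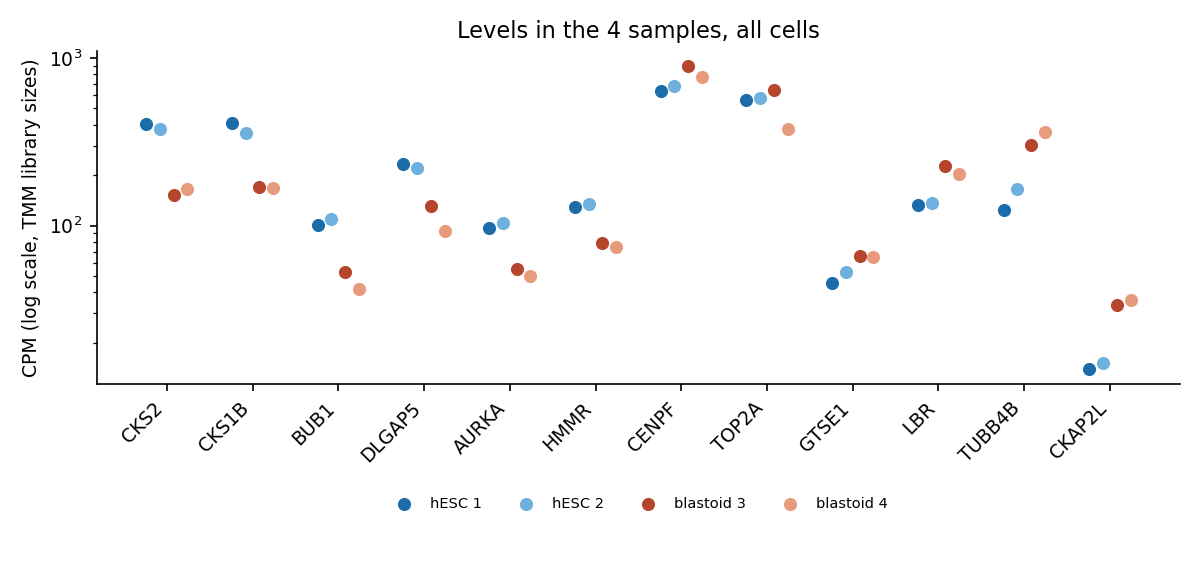
Each point is the CPM of 1 gene summed over all kept cells of 1 sample, on a log axis, for the 6 largest called falls (CKS2 to HMMR), for CENPF and TOP2A, the most abundant genes of their groups, and for the 4 called rises (GTSE1 to CKAP2L). For CKS2, CKS1B and CKAP2L the gap between the groups is wider than the gap between samples of a group. They were named for the size of their called change, so this gap adds nothing to the calls. TOP2A of blastoid 3 and blastoid 4 lies on either side of the hESC samples.

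Among genes of chromosome structure, TOP2A, the topoisomerase that untangles sister chromatids, had 559 and 576 CPM in hESC 1 and hESC 2 and 648 and 375 CPM in blastoid 3 and blastoid 4. The blastoid samples differed from each other by more than the groups did, and its log2 fold change of -0.15 ± 0.24 became 0.16 without blastoid 4 and -0.59 without blastoid 3 (adjusted p = 0.00047). Only ANP32E, a histone chaperone (-0.50 ± 0.12), and the condensin subunit NCAPD2 (-0.44 ± 0.14) were called in this group of 9. The condensin subunit SMC4 (0.30) and MKI67, the coat protein of mitotic chromosomes (0.31), were not.

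At the nuclear envelope the 2 genes with a call went opposite ways. LBR, the lamin B receptor, which also has a sterol reductase activity, had 133 and 136 CPM in hESC 1 and hESC 2 and 227 and 204 CPM in blastoid 3 and blastoid 4 and rose by 0.68 ± 0.13 (SE; adjusted p = 0.0037); without either hESC sample the adjusted p was 0.075 or 0.061. TMPO, a lamina-associated protein and the most abundant of the group, had 224, 207, 173 and 152 CPM in hESC 1, hESC 2, blastoid 3 and blastoid 4 (-0.41 ± 0.13, SE; adjusted p = 0.036). Its call was lost with library size alone, with no filter on low counts, without the shared barcodes and without either hESC sample (adjusted p from 0.055 to 0.31). For cytokinesis, the activator of RHOA at the division plane, ECT2, had 121, 115, 78.2 and 67.6 CPM in that order (-0.70 ± 0.13, SE; adjusted p = 0.004; adjusted p = 0.06 without hESC 1), and the central spindle motor KIF23 fell too (-0.58 ± 0.13). The scaffold ANLN was not called (0.06). Of the ubiquitin group UBE2C, the ubiquitin-conjugating enzyme of the anaphase-promoting complex, had 196, 189, 115 and 147 CPM (-0.55 ± 0.15, SE; adjusted p = 0.019; adjusted p = 0.15 without hESC 1 and 0.11 without hESC 2), and CDC20, its activator (-0.27), was not called.

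The number of calls depended on which samples were in the fit. It was 8 without hESC 1, 9 without hESC 2, 32 without blastoid 4 and 13 without the shared barcodes, where 28.5%, 29.9%, 59.6% and 46.3% of all genes were called. With library size alone as the scaling 6 genes were called higher and 11 lower, beside 5129 higher and 2998 lower of all 16332 genes.

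Within the mesoderm/mesenchyme-like class, 19 of the 52 genes were called against hESC, 10 higher and 9 lower, beside 55.7% of all genes tested (28.9% higher and 26.8% lower). The median of the 52 was 0.03, and that of all genes was 0.03 (0.0265 and 0.0337 before rounding). CKAP2L reached 39.2 and 47.9 CPM in this class of blastoid 3 and blastoid 4, against 14.1 and 15.2 CPM in the hESC samples (1.57 ± 0.16, SE; adjusted p = 7.7e-06). TUBB4B (1.27 ± 0.18; 125, 167, 305 and 399 CPM in hESC 1, hESC 2, blastoid 3 and blastoid 4) and LBR (0.69 ± 0.13; 134, 137, 231 and 205 CPM) were again higher. CENPF (0.63 ± 0.14), SMC4 (0.58 ± 0.14), MKI67 (0.55 ± 0.13) and NUSAP1, a spindle protein (0.42 ± 0.16), were called higher here though not over all cells. The comparisons of each class with hESC use the same 2 hESC samples as the comparison of all cells.

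CKS2, CKS1B and BUB1 fell furthest in this class. CKS2 had 406, 377, 154 and 179 CPM in hESC 1, hESC 2, blastoid 3 and blastoid 4 (-1.24 ± 0.14, SE; adjusted p = 2.2e-05). CKS1B had 413, 361, 179 and 193 CPM (-1.06 ± 0.14, SE; adjusted p = 6.8e-05) and BUB1 101, 109.7, 57.9 and 48.8 CPM (-0.98 ± 0.14, SE; adjusted p = 0.00011). These 3 genes were named for the size of their called fall, so the gap between their samples adds nothing to the calls. With cells thinned to 2000 UMIs the split was 8 higher and 13 lower (median -0.11). Without the shared barcodes it was 3 higher and 10 lower (median -0.19). The shares of all genes in these fits are not given here. With library size alone the split was 16 higher and 7 lower (median 0.18), beside 5434 higher and 3348 lower of all 15680 genes (median 0.19). The count was 10 without hESC 1, 12 without hESC 2 and 29 without blastoid 4, where 39.5%, 41.2% and 59.9% of all genes were called.

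Trophectoderm/amnion-like cells differed from hESC in most of the genes: 43 of 52 were called, 41 lower and 2 higher, beside 58.2% of all genes (27.9% lower and 30.3% higher), and the median was -0.92 beside 0.01. BUB1 fell furthest, from 96.9 and 105 CPM in the hESC samples to 27.1 and 24.2 CPM in this class (-1.99 ± 0.14, SE; adjusted p = 5.8e-06). DLGAP5 had 226, 213, 73.9 and 55.2 CPM in hESC 1, hESC 2, blastoid 3 and blastoid 4 (-1.78 ± 0.16, SE; adjusted p = 2.3e-05) and BIRC5 205, 195, 60.4 and 63.4 CPM (-1.69 ± 0.13, SE; adjusted p = 9e-06). Every gene of the groups of CDK1 and its partners, of ubiquitin and of the kinetochore was called lower (17 of 17). The count of calls moved when a sample was left out, and the shares of all genes in those fits are not given here.

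The 2 exceptions that rose were TUBB4B, with 119.8, 160.1, 323 and 335 CPM in that order (1.23 ± 0.16, SE; adjusted p = 0.00019), and LBR, with 128, 131, 237 and 217 CPM (0.81 ± 0.13, SE; adjusted p = 0.00058). Their shares of cells with a UMI were 39.9% and 38.4% for TUBB4B in trophectoderm/amnion-like cells, against 19.6% and 26.2% in hESC, and 38.6% and 33.2% for LBR against 21.4% and 21.8%. The 9 genes without a call were CTCF, ANLN, NEK2, RANGAP1, CDCA8, CKAP2, GTSE1, CKAP2L and GAS2L3.

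Pluripotent-like blastoid cells were compared with hESC on smaller sums (772119 and 1361029 UMIs). There 13 of the 52 genes were called, 12 lower and 1 higher, beside 23.9% of all genes (11.1% lower and 12.8% higher), with a median of -0.27 beside -0.02. CBX5, a heterochromatin protein, had 335, 355, 206 and 143 CPM in hESC 1, hESC 2, blastoid 3 and blastoid 4 (-1.01 ± 0.17, SE; adjusted p = 0.00038). CKS2 had 399, 368, 201 and 199 CPM (-0.94 ± 0.15, SE; adjusted p = 0.0002) and CKS1B 405, 353, 216 and 206 CPM (-0.85 ± 0.15, SE; adjusted p = 0.00061). TUBB4B was the 1 gene called higher, with 123, 163, 245 and 251 CPM (0.79 ± 0.16, SE; adjusted p = 0.0015; adjusted p = 0.14 without hESC 1). These 4 genes were named for the size of their called change, so the gap between their samples adds nothing to the calls. The count fell to 6 with thinned cells, to 4 without hESC 1 and to 5 without hESC 2, and rose to 24 without blastoid 3, where 9.39%, 12%, 15.1% and 23.1% of all genes were called. Without the shared barcodes, which left 17 such cells in blastoid 4, 4 genes were called higher and 6 lower. The share of all genes in that fit is not given here.

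Since the 3 classes were set against the same hESC samples, their values are given side by side, as log2 fold changes in mesoderm/mesenchyme-like, trophectoderm/amnion-like and pluripotent-like cells in that order. TUBB4B had 1.27, 1.23 and 0.79, each called. CKS2 had -1.24, -1.47 and -0.94 and CKS1B -1.06, -1.62 and -0.85, all called. AURKA had -0.77, -1.45 and -0.75 and HMMR -0.59, -1.52 and -0.48, again each called. CENPF had 0.63, -0.54 and -0.15, of which the first 2 were called, in opposite directions. MKI67 (0.55, -0.43 and 0.16), SMC4 (0.58, -0.72 and 0.04) and NUSAP1 (0.42, -0.58 and 0.30) were likewise called in opposite directions in the first 2 classes. In the direct test between those classes these last 4 genes were called, with log2 ratios of 1.15, 0.98, 1.27 and 1.00. Against hESC the pair of opposite calls was found for none of these 4 genes without the shared barcodes or without hESC 1 and for 1 (SMC4) without hESC 2; NUSAP1 also lost it with library size alone, with thinned sums and without either blastoid sample.

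**Figure D4:**
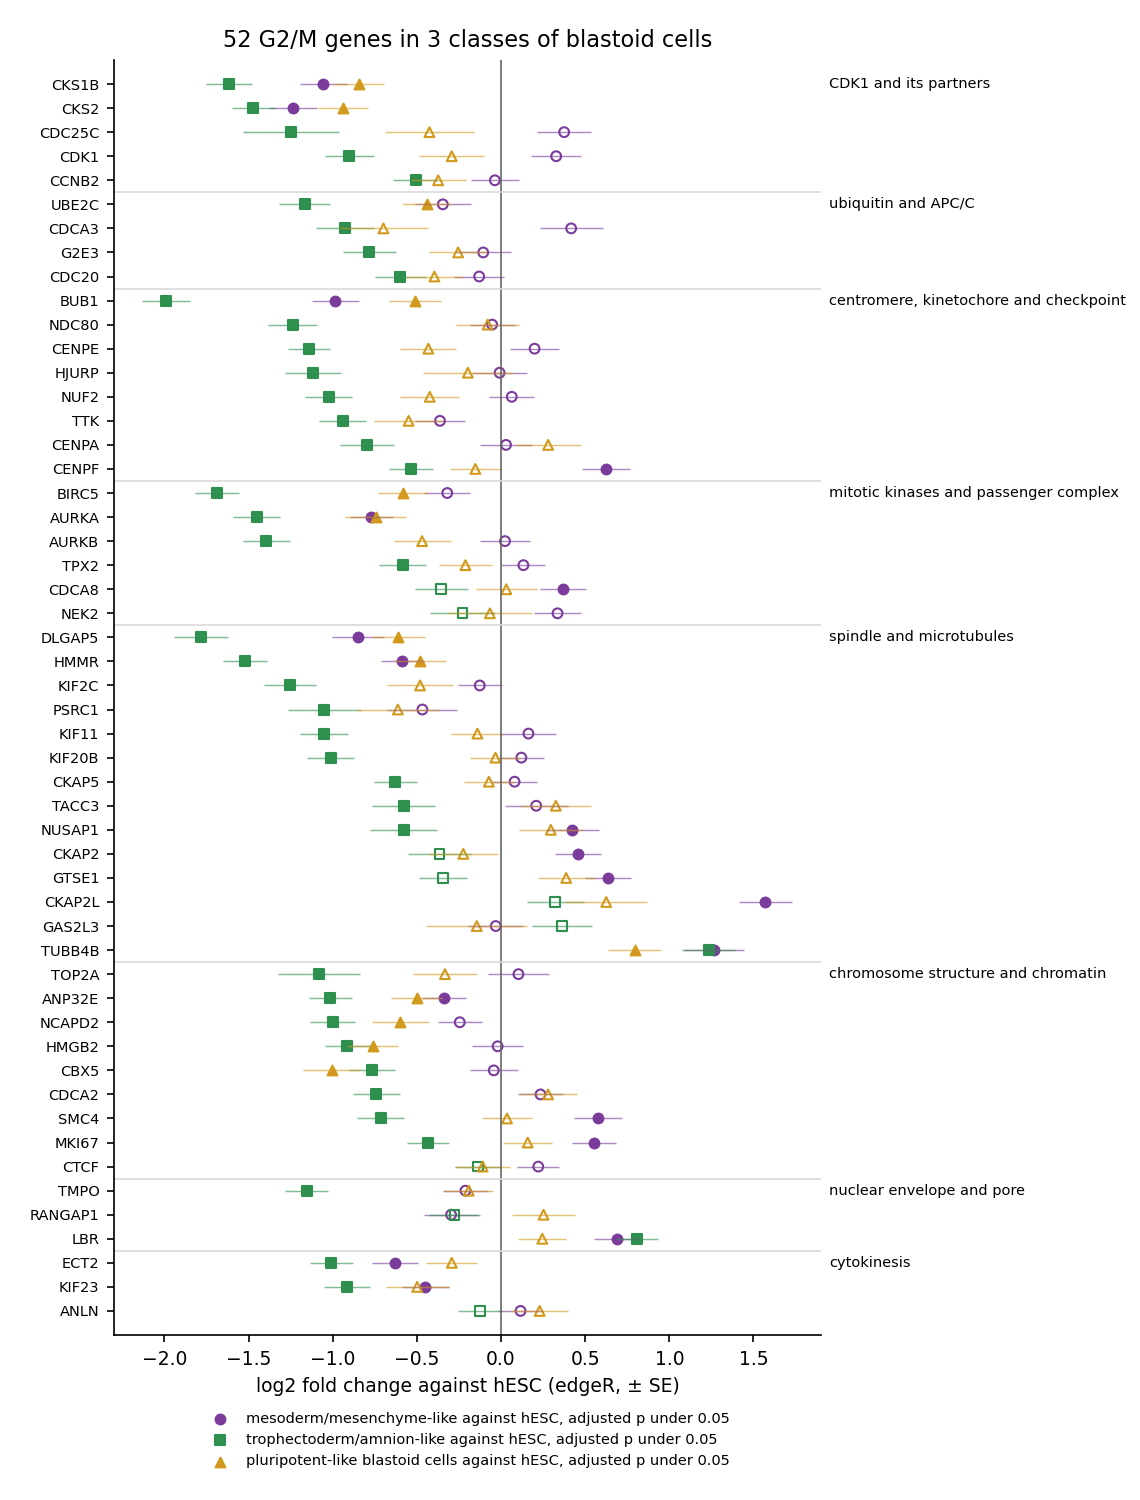
The x axis is the log2 fold change against hESC (± SE) of each of the 52 genes in 3 classes of blastoid cells, in rows by role group; filled symbols have an adjusted p under 0.05 and open ones do not. The squares of trophectoderm/amnion-like cells lie left of the circles of mesoderm/mesenchyme-like cells for nearly all genes, and TUBB4B and LBR lie on the right for both.

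The 2 large classes were also tested against each other within the blastoid samples, with the sample as a block. Of the 52 genes, 47 were called higher and 1 lower in mesoderm/mesenchyme-like cells, beside 52.8% of all genes (25.8% higher and 27.0% lower), and the median was 0.83 beside 0.01. In each sample 49 of the 52 were higher, with medians of 0.80 and 0.84 on the log2(CPM + 1) scale. CDC25C had 28.4 and 22.6 CPM in the mesoderm/mesenchyme-like cells of blastoid 3 and blastoid 4 and 12.5 and 5.76 CPM in their trophectoderm/amnion-like cells (1.58 ± 0.20, SE; adjusted p = 1.9e-08). AURKB had 61.6 and 79.5 CPM in the mesoderm/mesenchyme-like cells of blastoid 3 and blastoid 4 and 27.3 and 26.1 CPM in their trophectoderm/amnion-like cells (1.43 ± 0.12, SE; adjusted p = 5e-12). CDCA3, a mitotic entry factor of the ubiquitin group, had 25.8 and 38.2 CPM in the mesoderm/mesenchyme-like cells of blastoid 3 and blastoid 4 and 11.8 and 13.3 CPM in their trophectoderm/amnion-like cells (1.38 ± 0.17, SE; adjusted p = 1.4e-08).

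CDC25C, AURKB and CDCA3 were named for the largest called rises, so their higher mesoderm/mesenchyme-like level in both samples adds nothing to those calls. TOP2A was at 739 and 496 CPM in the mesoderm/mesenchyme-like cells of blastoid 3 and blastoid 4 and 356 and 194 CPM in their trophectoderm/amnion-like cells (1.20 ± 0.06), so the gap between the 2 samples ran through both classes. GAS2L3, which links actin and microtubules, was the 1 gene called lower, with 13.6 and 14.2 CPM in the mesoderm/mesenchyme-like cells of blastoid 3 and blastoid 4 and 20.8 and 16.7 CPM in their trophectoderm/amnion-like cells (-0.41 ± 0.17, SE; adjusted p = 0.049); it lost the call in 8 of 9 alternatives. ANLN, RANGAP1, LBR and TUBB4B were not called. Without the block 38 genes were called, all higher, with the share of all genes not given here. Over all genes, library size alone moved the calls from 48.9% to 60.8% higher and the median from 0.01 to 0.16, and the members to 48 higher and 0 lower. The same scaling moved the median of all genes from 0.05 to 0.18 over all cells and from 0.03 to 0.19 in mesoderm/mesenchyme-like cells against hESC.

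Whether the 52 genes mark the same cells was checked with 44 other G2/M genes that share no member with them (46 were listed and 44 were in the tables). A cell of 2000 UMIs was called high with at least 4 of the 44 detected and low with 0 or 1. High cells made up 74.9% and 79.7% of the hESC samples and 54.2% and 50.5% of the blastoid samples. Low cells were 86 and 80 cells (4.77% and 3.63%) in hESC and 465 and 493 cells (21.4% and 26.3%) in blastoids. With the sample as a block, 51 of the 52 genes were called higher in high cells and none lower, beside 7.77% of all 11451 genes (4.95% higher and 2.82% lower), and the median log2 ratio was 2.97 beside 0.02. In the same test 26 of 42 S phase genes were called higher in high cells and none lower, so the split was not particular to G2 and M phase. High cells had medians of 6978, 6479, 7584 and 10274.5 UMIs before thinning in hESC 1, hESC 2, blastoid 3 and blastoid 4, and low cells 5238, 5020, 5082 and 7253 UMIs; the part of depth beyond the thinning was not tested. Without the sample block 14 were called, all higher, with the share of all genes not given here.

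The fitted ratio was largest for KIF2C (5.27 ± 0.46), GTSE1 (4.54 ± 0.38), CENPA, the centromeric histone (4.29 ± 0.49), and CKAP2L (4.13 ± 0.39). These 4 rest on few molecules in low cells. KIF2C had 116, 154, 134 and 114 UMIs in the high cells of hESC 1, hESC 2, blastoid 3 and blastoid 4 and 1, 1, 0 and 1 in the low cells. CENPA had 95, 101, 96 and 70 UMIs against 2, 1, 1 and 0. GTSE1 had 117, 178, 248 and 215 UMIs against 2, 3, 1 and 3. CKAP2L had 43, 51, 137 and 98 UMIs against 0, 0, 3 and 3, so in hESC it was at least 1.675-fold higher in high cells, computed against 3 counts over the group (1.34-fold at the lower end of the 95% counting interval of that ratio).

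The ratio was smallest for CBX5 (0.38 ± 0.11), CTCF, the insulator protein (0.46 ± 0.16, not called), ANP32E (0.61 ± 0.15) and LBR (0.71 ± 0.13), which are all among the 12 broad genes. CBX5 had 336 against 322 CPM in high and low cells of hESC and 355 against 239.6 CPM in those of blastoids. CTCF had 75.4 against 75.3 CPM and 109 against 70.5 CPM in the same order. ANP32E had 315 against 337 CPM and 301 against 141 CPM, and LBR 132 against 81.3 CPM and 276 against 165 CPM. In these 4 genes high and low cells of hESC differed at most 1.62-fold. The calls of CBX5, ANP32E and LBR were lost in some alternatives. The median ratio was 1.24 over the 12 broad genes and 3.24 over the other 40.

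High and low cells lay further apart in blastoids than in hESC. Blastoid cells of all classes were pooled for this. Of the 44 genes used for the split, 39 were called higher and 3 lower in mesoderm/mesenchyme-like than in trophectoderm/amnion-like cells (25.8% and 27.0% of all genes). State and class can therefore not be told apart in the blastoid ratios. The same cut also made low cells 4.77% and 3.63% of the hESC samples but 21.4% and 26.3% of the blastoid samples. The part this plays in the ratios was not tested. The interaction of state and group was called for 33 of the 52 genes, all with the larger ratio in blastoids, beside 2.47% of all genes (1.33% in that direction and 1.14% in the other); the median difference was 2.08 beside -0.20. TOP2A had 561 against 214 CPM in high and low cells of hESC and 836 against 38.1 CPM in those of blastoids, a difference of the log2 ratios of 2.86 ± 0.25 (SE; adjusted p = 1.4e-24); the fit borrows its estimate of the spread from all genes. CENPF had 642 against 271 CPM and 1339 against 127 CPM (2.00 ± 0.20, SE; adjusted p = 1.2e-19). CKS1B had 369.7 against 286 CPM and 245 against 39.1 CPM (2.09 ± 0.24, SE; adjusted p = 5.3e-16). By sample, with TMM scaling, CENPF in high cells had 663 and 713 CPM in hESC 1 and hESC 2 and 1312 and 1271 CPM in blastoid 3 and blastoid 4. The group values above have no such scaling, so values by sample and by group are on different scales. TOP2A had 593, 613, 960.5 and 607 CPM in that order, so only blastoid 3 lay above the hESC samples. In low cells both blastoid samples were below both hESC samples for TOP2A, CENPF and CKS1B. These genes had the smallest adjusted p of the interaction among the 52, so this gap adds nothing to their calls.

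Summed over the 52 genes without TMM scaling, high cells had 7249 CPM in hESC and 9903 CPM in blastoids, and low cells 3792 and 1647 CPM. Of the 43 genes with over 3 UMIs in the low cells of both groups, 42 had the larger ratio in blastoids (median log2 ratio 3.66 against 1.08), and G2E3, a ubiquitin ligase, had 1.53 against 1.54. By sample, the median log2 ratio of all genes was 0.20 and 0.22 in hESC 1 and hESC 2 and -0.02 and 0.01 in blastoid 3 and blastoid 4. The low cells of hESC held 172000 and 160000 UMIs after thinning, so the hESC ratios of the rarer genes are known poorly. The count was 32 with high set at 3 or more of the 44 genes and 33 at 6 or more. It was lower when a sample was left out. The shares of all genes in these fits are not given here. With library size alone 74.6% of calls over all genes were in the direction of blastoids, against 53.7%, and with no filter on low counts 36.7%; the members' calls were all in that direction in each.

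**Figure D5:**
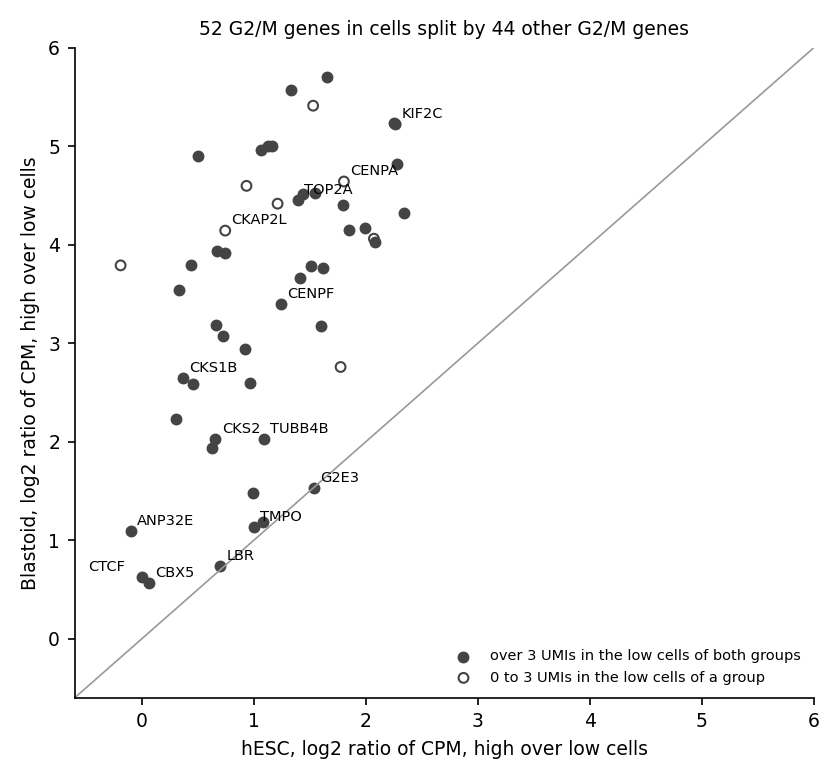
Each point is 1 of the 52 genes. The axes show the log2 ratio of its CPM, without TMM scaling, in cells high against cells low in 44 other G2/M genes. The x axis is hESC and the y axis blastoids, and the line marks equal ratios. Nearly all points lie above the line; LBR, TMPO and G2E3 lie on or near it. Open points have 0 to 3 UMIs in the low cells of a group, and for CKAP2L the hESC ratio is a lower bound.

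Single genes were also read across cells. The correlation over cells between the UMIs of a gene and the sum of the other 51, at 2000 UMIs per cell, was higher in both blastoid samples than in both hESC samples for 51 of the 52 genes, all but G2E3. The median was 0.15 and 0.14 in the hESC samples and 0.31 and 0.31 in the blastoid samples. It was 0.49 and 0.45 in hESC 1 and hESC 2 and 0.72 and 0.66 in blastoid 3 and blastoid 4 for TOP2A. It was 0.45 and 0.43 in hESC 1 and hESC 2 and 0.72 and 0.75 in blastoid 3 and blastoid 4 for CENPF. TUBB4B had 0.17 and 0.11 in hESC 1 and hESC 2 and 0.46 and 0.51 in blastoid 3 and blastoid 4. CTCF, the lowest in both blastoid samples, had 0.02 and 0.03 in hESC 1 and hESC 2 and 0.11 and 0.12 in blastoid 3 and blastoid 4. These are descriptions over cells of 1 library each, which are not replicates, and sparse counts hold them down. The same count was not made over all genes. The number of the 52 genes per cell also spread more in the blastoid samples (SD 6.93 and 6.41, against 4.56 and 4.28 in hESC). The part of that spread was not tested.

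Of the 44 other G2/M genes, 6 were called higher and 7 lower over all cells of blastoids, beside 27.1% and 22.8% of all genes. PBK, a mitotic kinase, had 15.2 and 18.4 CPM in the hESC samples against 106 and 50.6 CPM in the blastoid samples (log2 fold change 2.22 ± 0.33, SE) and CEP55, an abscission factor, 24.8 and 25.4 CPM in the hESC samples against 44.1 and 36.0 CPM in the blastoid samples (log2 fold change 0.68 ± 0.15, SE), a call that was lost with thinned cells, without the shared barcodes and without either hESC sample. UBE2S, which extends ubiquitin chains for the anaphase-promoting complex, had 594 and 522 CPM in the hESC samples against 224 and 247 CPM in the blastoid samples (log2 fold change -1.24 ± 0.14, SE), and the checkpoint kinase BUB1B 106 and 117 CPM in the hESC samples against 60.4 and 44.3 CPM in the blastoid samples (log2 fold change -1.10 ± 0.17, SE). In trophectoderm/amnion-like cells 32 of the 44 were called lower and 4 higher against hESC (27.9% and 30.3% of all genes). Between the classes 39 were called higher and 3 lower in mesoderm/mesenchyme-like cells (25.8% and 27.0% of all genes).

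Of the 43 S phase genes, 8 were called higher and 7 lower over all cells, beside 27.1% and 22.8% of all genes. In trophectoderm/amnion-like cells against hESC 29 were lower and 1 higher, beside 27.9% and 30.3% of all genes. In mesoderm/mesenchyme-like against trophectoderm/amnion-like cells 37 were higher and none lower, beside 25.8% and 27.0% of all genes. The late cyclin of G1 and S phase CCNE2 had 2.00 and 2.53 CPM in the hESC samples against 9.58 and 4.72 CPM in the blastoid samples (log2 fold change 1.64 ± 0.38, SE) and UHRF1, which carries DNA methylation through replication, 9.61 and 13.2 CPM in the hESC samples against 27.4 and 23.9 CPM in the blastoid samples (log2 fold change 1.16 ± 0.19, SE). DSCC1, a clamp loader subunit, had 62.5 and 55.4 CPM in the hESC samples against 22.5 and 25.2 CPM in the blastoid samples (log2 fold change -1.30 ± 0.14, SE). In pluripotent-like blastoid cells 10 of the 43 were called higher and 1 lower than in hESC, beside 12.8% of all genes called higher.

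Of the 20 G1 and arrest genes tested over all cells, 10 were called higher and 2 lower in blastoids, beside 27.1% and 22.8% of all genes. CDKN1C, a CDK inhibitor of the KIP family, had 28.6 and 23.4 CPM in the hESC samples against 92.7 and 174 CPM in the blastoid samples (log2 fold change 2.36 ± 0.29, SE). CDKN2C, another inhibitor, had 0 UMIs in both hESC samples and 51 and 33 UMIs in blastoid 3 and blastoid 4. CCNG1 had 325 and 309 CPM in the hESC samples against 156 and 178 CPM in the blastoid samples (log2 fold change -0.93 ± 0.13, SE). CDKN1A, another inhibitor of the KIP family, had 26.4 and 33.6 CPM in the hESC samples against 23.3 and 19.1 CPM in the blastoid samples (log2 fold change -0.51 ± 0.18, SE), and its call was lost in 5 alternatives (adjusted p from 0.065 to 0.36). Against hESC the counts were 9 higher and 4 lower in trophectoderm/amnion-like cells (30.3% and 27.9% of all genes) and 10 higher and 2 lower in mesoderm/mesenchyme-like cells (28.9% and 26.8% of all genes).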

How the data were processed

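The authors deposited 4 tables of UMI counts, 1 per sample, as whole numbers per gene and barcode, from 10x 3′ libraries; per the submitters' processing notes Cell Ranger and GRCh38 were used, with versions and filters not given in the sources used here. The tables hold 2071 to 7575 barcodes and 14930662 to 18193164 UMIs each, with 201 to under 5000 genes and at most 20% mitochondrial counts per barcode.

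Barcodes with 500 genes or more and no Scrublet call (expected 6%; 27, 0, 11 and 35 calls, with none in hESC 2, so doublets may remain) were kept. Cells were clustered with scanpy 1.11.5 and leidenalg 0.10.2 (2000 variable genes without the cell cycle lists, 30 components, 15 neighbours, resolution 0.5). Clusters were named from marker lists, with at least 3 markers detected in 10% of cells. Counts were summed per sample and class and tested with edgeR 4.0.16 (TMM, filterByExpr, quasi-likelihood, Benjamini-Hochberg over all genes); every adjusted p in the text is from this test unless DESeq2 (1.42.0) is named. Comparisons within samples had the sample as a block. Shares were read from cells thinned to 2000 UMIs (seed 1). Only the edgeR fit over all cells was checked on simulated data, with the same fixed spread for every gene. The blocked and interaction fits had no such check.

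The 52 members and the lists were chosen with earlier results of these data known. Values are given for the 6 called members with the largest rise and fall over all cells, 3 each in class comparisons, 4 each in high against low cells, the most abundant of each role group, and 2 each of the other lists; 1 gene so named is not reported here. The alternatives were other scaling, DESeq2, no filter, thinned sums, doublets kept, other limits per cell, no shared barcodes, clusters with all variable genes and each sample left out; for 2 shares the clusters with all variable genes were added after seeing the data. Samples of a group differed by more than sampling noise (chi-square per degree of freedom 4.87 and 23.9).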

Additional observations from a re-analysis of the deposited data

Results flagged for a closer look

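Cell classes were not held apart, and low cells were a smaller share of hESC than of blastoid cells. The interaction of cell state and group in edgeR was called for 33 of the 52 genes, beside 2.47% of all genes. Of these, 4 genes (NUSAP1, MKI67, CENPF and SMC4) were also called higher in mesoderm/mesenchyme-like and lower in trophectoderm/amnion-like cells against the same hESC samples, and were called in the direct test between those classes. The pair of opposite calls was found for none of these 4 genes without the shared barcodes or without hESC 1 and for 1 (SMC4) without hESC 2; NUSAP1 also lost it with library size alone, with thinned sums and without either blastoid sample.

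S phase genes moved in opposite directions with the G2/M genes in the groups. G2/M-high cells had fewer S phase genes detected per cell than the other cells in hESC 1 (a difference of -0.82 genes) and hESC 2 (-0.68), and more in blastoid 3 (1.93) and blastoid 4 (1.82). This difference between the groups was not tested. Within blastoids it was 1.68 and 1.32 in mesoderm/mesenchyme-like cells and 2.13 and 1.94 in trophectoderm/amnion-like cells, but -0.93 and -0.89 in pluripotent-like cells.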

How the results depend on the processing

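Over all cells the number of genes called (20) was 13 without shared barcodes and lay between 8 and 32 when a sample was left out. It lay between 10 and 29 (19 with all samples) for mesoderm/mesenchyme-like cells. For pluripotent-like cells (13) it was 6 with thinned sums and between 4 and 24 when a sample was left out. For trophectoderm/amnion-like cells the number also moved with the alternative, and the shares of all genes in those fits are not given here. The interaction count (33) lay between 16 and 24 when a sample was left out. With 1 sample left in a group, that sample is assumed to vary like the other group.

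The difference of -11.5 points in G2/M-high share between blastoids and hESC was -22.1 at 8 genes or more, -3.37 at 12 or more, -18.5 at 4000 UMIs and -19.2 by phase call. The difference of 24.7 points between the classes was 27.2 at 8 genes or more, 21.4 at 12 or more, 22.8 with at least 7 of the 40 genes that are not broad, 26.8 at 4000 UMIs, 18.3 by phase call and 18.3 without shared barcodes. The phase calls score the same genes in the same thinned cells as the G2/M-high share, so they are not a separate measure. The causes of the differences were not tested.

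TPX2 over all cells turned from -0.057 to 0.079 with library size alone, and lay between -0.19 and 0.046 when a sample was left out; TOP2A lay between -0.59 and 0.16. Of 603 alternative values for 55 pairs of gene and comparison, 545 kept direction and call, 50 lost the call, 5 gained one and 3 changed sign. Most of these pairs were picked for the largest called changes in these same data, so kept calls are partly built in. The pairs do not stand for all members.

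No paired analysis was possible because the hESC and blastoid samples share no replicate numbers. Within samples, the fit with no replicate block called 14 genes between high and low cells (51 with the block) and 38 between the classes (48 with it). Leaving out a sample was not run for the test between the classes, which would then have no residual degrees of freedom. Depth limits the low cells of hESC and the pluripotent-like cells of blastoids, where few UMIs stand behind rare genes.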
